A study of Mus musculus with 28 samples.

Results

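The 37 genes described here encode some of the glucose transporters (Slc2a3 and Slc2a4) and enzymes of glycolysis. They also encode carriers that move lactate across the plasma membrane and proteins that take pyruvate into mitochondria. They were chosen by name as 1 metabolic module, all 37 were found by symbol among the 41605 gene identifiers of the count table, and all 37 were among the 17700 genes abundant enough to be tested. RNA was sequenced from peripheral nerves of wild-type C57BL/6J mice at 7 stages with 4 libraries each, 28 in all: embryonic day 13 (E13), embryonic day 17 (E17) and postnatal days 1, 5, 14, 24 and 60 (P1, P5, P14, P24 and P60). The labels shorten the embryonic ages to whole days, and the embryos were older than that by part of a day. Both sexes were sampled at every stage. No mouse carried an engineered allele or received a treatment, so age was the variable that was followed. The E13 libraries came from various nerves lying distal to the dorsal root ganglia, which were not stripped of their outer sheaths. The later libraries came from sciatic nerve whose epineurium and perineurium had been stripped as far as possible. How much of these sheaths remained at each stage is not stated. Each E13 or E17 library pooled 2 embryos and each postnatal library came from 1 mouse, and the animals were not perfused. In E17 against E13, therefore, age cannot be told apart from the kind of nerve and its dissection.

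Glycolysis splits glucose into pyruvate in the cytosol. Hexokinase, phosphofructokinase and pyruvate kinase catalyse its committed steps, and most steps have several isozymes that differ between tissues. Pyruvate can be reduced to lactate by lactate dehydrogenase or imported into mitochondria by the mitochondrial pyruvate carrier, where the pyruvate dehydrogenase complex converts it to acetyl-CoA and the pyruvate dehydrogenase kinases restrain that complex. In nerve, Schwann cells are thought to pass lactate to axons through monocarboxylate transporters, the arrangement known as the lactate shuttle.

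Total counts ranged from 13899895 to 37662780 per library. Levels are given as CPM, the counts of a gene scaled to a library of fixed size, after TMM scaling (a correction for differences in RNA composition), as mean ± SD over 4 libraries. Changes are log2 fold changes, and adjusted p values are those of edgeR's quasi-likelihood test with Benjamini-Hochberg adjustment over all genes tested. Each change is given with an approximate standard error (SE), its absolute value divided by the square root of the F statistic of that test. The SE thus rests on the spread in the fit of all 28 libraries, not on that of the compared stages alone. A gene passed if its adjusted p was below 0.05. Because whole nerve was sequenced, a change in the share of a cell type and a change of RNA per cell cannot be told apart. Of the markers of Schwann cells (Sox10, Mbp, Prx, Pmp22, S100b), all 5 were found at every stage, and their summed level was 186 to 427 CPM at E13, 2751 to 3161 CPM at E17, 13350 to 24810 CPM at P1 and 66770 to 85350 CPM at P60, with the highest stage mean at P14 (101500 to 124100 CPM). Markers of neuronal cell bodies summed to 707 to 1564 CPM at E13, with all 7 of them present, and to 27.99 to 44.6 CPM at E17. Markers of cycling cells fell in their sum from 2040 to 2129 CPM at E17 to 3.79 to 5.27 CPM at P60. White adipocyte markers summed to 125.2 to 318 CPM at P60, with all 6 present, and to 10.8 to 14.6 CPM at P1, with 2 of the 6 above 3 counts in any library. Perineurial markers, all 3 of which were found at every stage, summed to 185 to 213 CPM at E17, 134 to 199 CPM at P1 and 763 to 1123 CPM at P60. The part of these cells in the results below was not tested.

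Some libraries stood apart from the others of their stage along the GC content of transcripts. The slope of a library's deviation from its stage mean was -0.93 log2 units per 10 percentage points of GC in E13 replicate 1, 0.73 in E13 replicate 4 and -0.43 in P1 replicate 1. P1 replicate 1 was the lowest of the 4 P1 libraries for 26 of the 37 genes, which had a median GC of 54%, and the highest for 7, with a median of 45.5%. Calls of the 37 genes in comparisons with P1 that were lost without this library are named where they occur.

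All 37 genes passed the test across the 7 stages together, as did 88.8% of all genes tested. The highest stage mean fell at E13 for 11 genes, at E17 for 9, at P60 for 7 and at P24 for 5, and the lowest fell at E17 for 11, at P1 for 7 and at P60 for 7. Among all genes tested, 32.4% were highest at E13, 16.2% at E17, 20.98% at P60 and 7.994% at P24, and 17.63% were lowest at E17, 12.11% at P1 and 22.8% at P60. The range between the highest and the lowest stage mean was 40.2-fold for Aldoc, 31.4-fold for Slc16a3, 13.2-fold for Slc2a3 and 10.7-fold for Emb, and it was 1.42-fold for Dlat, the smallest of the 37. Leaving out E13, Aldoc and Slc16a3 kept these ranges while that of Slc2a3 was 2.08-fold and that of Emb 2.94-fold.

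**Figure D1:**
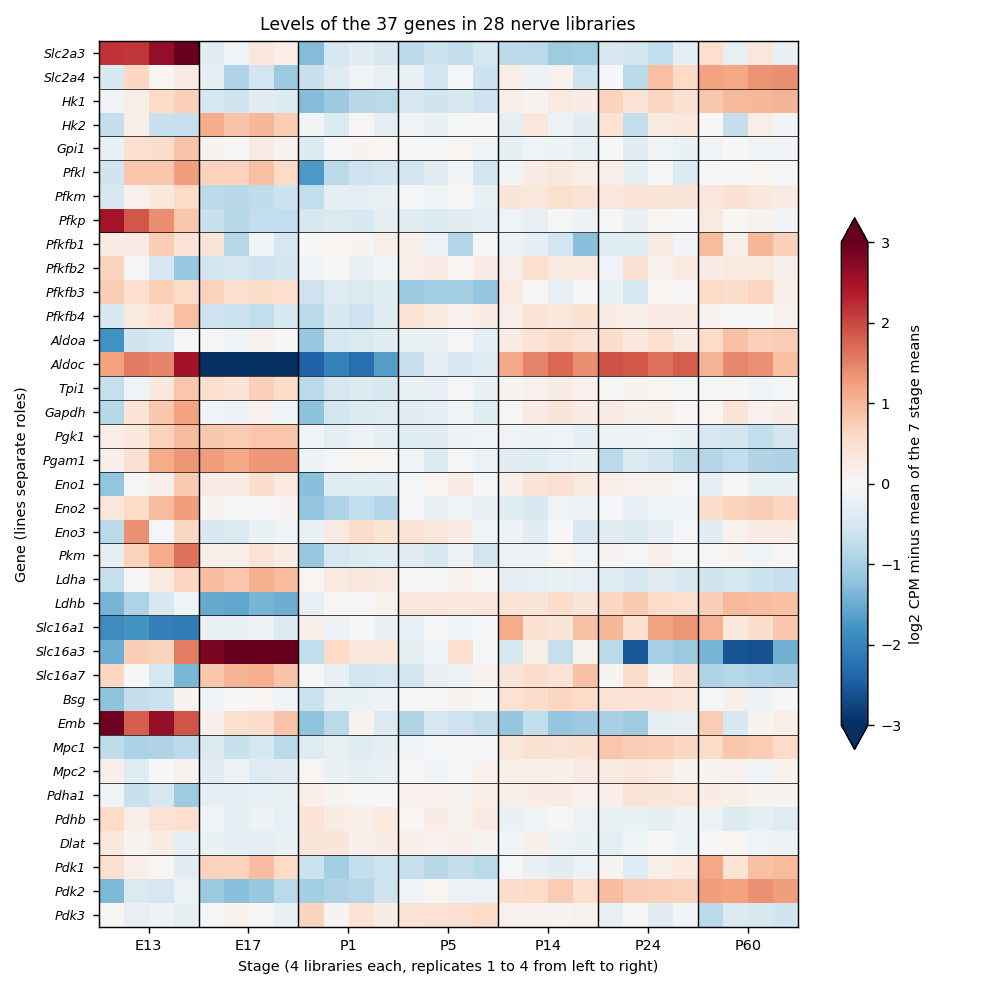
Each row is a gene, each column a library (replicates 1 to 4 of a stage from left to right), and colour gives log2 CPM minus the mean of the 7 stage means, red above and blue below, with the scale ending at 3 in either direction. The 4 E17 libraries are red for Slc16a3 and blue for Aldoc and Ldhb, and P60 is red for Slc2a4, Hk1, Pdk1 and Pdk2.

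From E17 to P1 more of the 37 genes fell than rose. At P1, 16 were lower and 7 higher, where 14.4% of all genes tested were lower and 15.1% higher. With a change of at least 2-fold as an added condition, 9 were lower and 2 higher, against 11.7% of all genes in either direction. The median log2 change was -0.26 over the 37 genes and 0 over all genes. Without P1 replicate 1, 15 were lower and 6 higher, where 13.2% of all genes were lower and 14.5% higher in the same fit. Over this step 4 of 5 Schwann cell markers were higher, while 4 of 4 markers of cycling cells, 3 of 4 endothelial, 4 of 5 erythroid, 4 of 7 neuronal cell body and 6 of 7 skeletal muscle markers tested were lower. The erythroid markers summed to 245 to 684 CPM at E17 and 42.4 to 127.5 CPM at P1, and the skeletal muscle markers to 7.68 to 28.2 CPM and 1.82 to 4.01 CPM.

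From P1 to P60 most of the genes that changed rose. In the adult nerve 21 genes were higher and 8 lower, against 30.9% and 30.2% of all genes, and 8 were at least 2-fold higher and 1 at least 2-fold lower, against 35.5% of all genes in either direction. The share that changed by 2-fold or more was thus 24.3% for the module, below that of all genes. The median log2 change was 0.57 over the module and -0.02 over all genes, and without P1 replicate 1 the counts were 17 higher and 7 lower (29.5% and 27.6% of all genes). Over the same span 4 of 5 Schwann cell, 3 of 3 perineurial, 6 of 6 white adipocyte, 4 of 4 endothelial, 3 of 7 neuronal cell body and 2 of 7 skeletal muscle markers tested were higher, and 4 of 4 markers of cycling cells and 3 of 5 erythroid markers were lower. The comparisons that involve P1 share its 4 libraries, as those that involve P60, P24 or any other stage share theirs.

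The remaining steps were as follows. In E17 against E13, 11 genes were higher and 19 lower (28.1% and 34.1% of all genes), and 8 changed at least 2-fold (35.5%). Of the markers tested, 5 of 5 Schwann cell, 4 of 4 cycling cell, 3 of 4 endothelial and 2 of 3 perineurial were higher in that step. So were 1 of 6 white adipocyte and 1 of 7 skeletal muscle markers. Lower were 7 of 7 neuronal cell body, 5 of 5 erythroid, 6 of 7 skeletal muscle and 1 of 4 endothelial markers. In P5 against P1, 6 genes were higher and 1 lower (10.3% and 7.33%), and 1 changed at least 2-fold (5.84%). Without P1 replicate 1, 4 were higher and 1 lower in that step (8.08% and 5.32%), with Hk1 and Mpc1 lost. Of the markers tested, 4 of 5 Schwann cell, 2 of 6 white adipocyte and 2 of 4 endothelial were higher at P5 than at P1. Lower were 4 of 4 cycling cell and 1 of 7 neuronal cell body markers. In P14 against P5, 11 genes were higher and 2 lower (15.4% and 14.2%), and 2 changed at least 2-fold (12%). In that step 4 of 5 Schwann cell, 3 of 6 white adipocyte, 2 of 3 perineurial, 2 of 4 endothelial, 2 of 7 skeletal muscle, 1 of 7 neuronal cell body and 2 of 2 brown adipocyte markers tested were higher, and 4 of 4 markers of cycling cells were lower. The 4 brown adipocyte markers summed to 5.27, 48.4, 62.7 and 0.684 CPM in P14 replicates 1 to 4 and to at most 0.0834 CPM at P5. In P24 against P14, Mpc1 alone was higher and no gene was lower (2.72% and 2.72%), and no gene changed at least 2-fold (2.65%). By DESeq2 the count of genes past the threshold was also 1 in that step, while other fits gave other counts, listed in the closing section. The Mpc1 call was lost in 10 of 18 alternatives, among them every fit that left out 1 library. At an unadjusted p below 0.05 in the edgeR test, 2 genes were higher (Hk1 and Mpc1) and 3 lower (Slc16a3, Pdk3 and Pgam1), where 8.53% of all genes were higher and 7.75% lower. In P60 against P24, 7 genes were higher and 4 lower (6.84% and 9.23%), and 1 changed at least 2-fold (5.96%). Of the markers tested, 2 of 7 neuronal cell body, 1 of 4 endothelial and 1 of 3 perineurial were higher in that step. Lower were 4 of 4 cycling cell, 3 of 5 erythroid, 2 of 5 Schwann cell and 1 of 7 skeletal muscle markers.

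These splits between higher and lower depended on the scaling of the libraries. Under scaling by library size alone the median of all genes moved to -0.33 in E17 against E13, -0.11 in P1 against E17, -0.19 in P5 against P1, -0.17 in P14 against P5 and -0.22 in P60 against P1. The splits were then 5 higher and 21 lower in E17 against E13 (20% and 43.6% of all genes in the same fit), 4 and 19 in P1 against E17 (11.6% and 19.3%), 4 and 4 in P5 against P1 (6.52% and 18.2%), 6 and 4 in P14 against P5 (10.8% and 23.7%), 7 and 1 in P60 against P24 (10.4% and 6.29%), and 15 and 8 in P60 against P1 (25.8% and 37.7%). No gene that passed turned its direction under any of the scalings tried. Calls lost under library size alone were those of Aldoa, Pgam1, Bsg, Mpc1, Pdha1 and Pdk1 in E17 against E13, Pfkm, Mpc1 and Pdk3 in P1 against E17, Hk1 and Mpc1 in P5 against P1, Pfkm, Aldoa, Slc16a7, Bsg and Pdk1 in P14 against P5, Aldoc, Pgk1 and Pdk3 in P60 against P24, and Slc2a3, Pfkp, Pfkfb1, Tpi1, Pkm and Emb in P60 against P1.

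**Figure D2:**
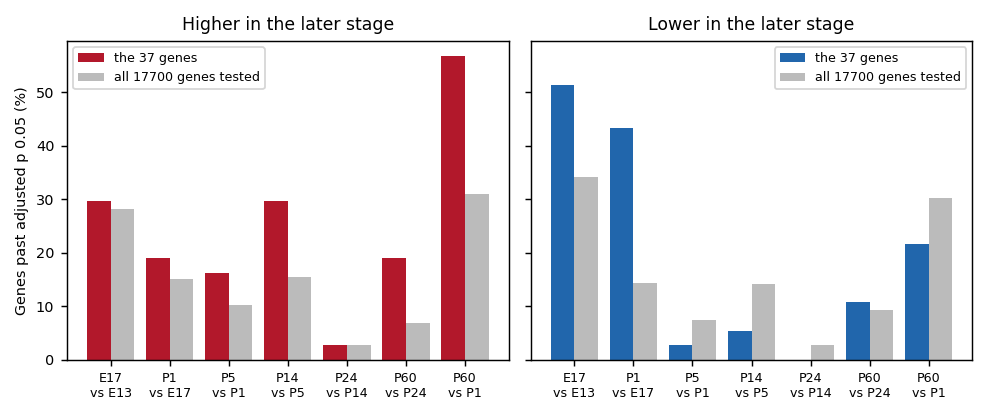
Bars give the percentage of genes past an adjusted p of 0.05 in 7 comparisons of stages, higher in the later stage on the left and lower on the right, for the 37 genes (coloured) and all 17700 genes tested (grey). The module stands above the grey bar for lower genes in P1 against E17, at 43.2% against 14.4%, and for higher genes in P60 against P1, at 56.8% against 30.9%.

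Glucose enters cells through the SLC2 transporters. Slc2a3 and Slc2a4 are members here, while Slc2a1, which the study used as a marker of perineurial cells, is not. Slc2a3, which encodes GLUT3, the transporter typical of neurons, was at 24.2, 23.7, 33.7 and 68.0 CPM in the 4 E13 libraries and at 4.34 to 6.75 CPM in the E17 libraries, with a log2 change of -2.75 ± 0.27 (SE, adjusted p = 1.4e-09). The groups did not overlap, and the neuronal cell body markers fell over the same step. From P1 on its stage means lay between 2.84 and 5.90 CPM, and its rise from P1 to P60 (0.75 ± 0.27, adjusted p = 0.0176) was lost without P1 replicate 1, with an adjusted p of 0.067, and without P60 replicate 1 (0.0731) or 3 (0.0527). Slc2a4 encodes GLUT4, the insulin-responsive transporter of muscle and fat. It was at 3.57 ± 0.57 CPM at P1 and 10.9 ± 0.88 CPM at P60, a log2 change of 1.61 ± 0.27 with an adjusted p of 1.18e-05. The 4 P60 libraries, at 10.4, 10.01, 11.6 and 11.8 CPM, lay above every P1 library. At P24, by contrast, Slc2a4 was scattered, at 4.49, 2.56, 8.45 and 6.81 CPM in replicates 1 to 4, and the white adipocyte markers summed to 123.5, 8.79, 203.5 and 133.6 CPM in the same libraries. Replicate 2 was lowest for both, as it was for the perineurial and the endothelial markers, and the rise from P24 to P60 (0.96 ± 0.27, adjusted p = 0.0138) was lost without it, at 0.72 with an adjusted p of 0.0581.

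Hexokinase traps glucose in the cell as glucose 6-phosphate, and its isozymes moved in different ways. Hk1, the ubiquitous form, averaged 87.4 ± 21.97 CPM at E13 and 48.8 ± 4.14 CPM at E17. Its mean was 33.8 ± 5.34 CPM on P1, 46.1 ± 2.31 on P5, 77.4 ± 3.73 on P14, 98.7 ± 9.23 on P24 and 130.4 ± 8.56 on P60. After the low at P1 each later stage mean was higher than the one before. The changes were 0.45 ± 0.13 from P1 to P5 (adjusted p = 0.0192), 0.75 ± 0.13 from P5 to P14 (adjusted p = 9.02e-05) and 0.40 ± 0.13 from P24 to P60 (adjusted p = 0.0373), and the first and last of these were lost when single libraries were left out (the first with adjusted p values of 0.0514 to 0.0888 without P1 replicate 1 or 2 or P5 replicate 1 or 3, the last with 0.0584 to 0.115 without any of P24 replicates 2 to 4 and P60 replicates 2 to 4). Over the whole span from P1 to P60 the rise was 1.95 ± 0.14, or 3.86-fold (adjusted p = 1.78e-12). Hk2, the form induced in growing and insulin-responsive tissues, was at 28.5, 23.9, 26.0 and 22.1 CPM in the E17 libraries and at 12.4, 9.91, 13.6 and 10.7 CPM in the P1 libraries. It fell by 1.11 ± 0.22 (adjusted p = 0.000292), its E17 libraries lay above all others of the series, and its P60 mean of 12.2 CPM differed from the P1 mean of 11.6 CPM by 0.07 ± 0.22 (adjusted p = 0.815). Per kilobase of merged exons, Hk2 stood at 0.735 of Hk1 at E17, at 0.493 at P1 and at 0.131 at P60.

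Gpi1, the isomerase that converts glucose 6-phosphate to fructose 6-phosphate, had stage means from 167 ± 6.75 CPM at P14 to 262 ± 74.9 CPM at E13, with 208 ± 11.9 at E17, 182 ± 27.2 at P1 and 181 ± 5.58 at P60. Its log2 change was -0.19 ± 0.14 from E17 to P1 and -0.01 ± 0.14 from P1 to P60. Neither passed.

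Phosphofructokinase, the main control point of glycolysis, is built from the subunits encoded by Pfkl, Pfkm and Pfkp, named after liver, muscle and platelet. Pfkl stood at 57.9, 58.1, 67.4 and 54.2 CPM in the E17 libraries and at 10.9, 20.6, 23.2 and 24.1 CPM in those of P1. The groups did not overlap and the log2 change was -1.59 ± 0.25 (adjusted p = 1.71e-05). Replicate 1 was again the lowest P1 library, and the change was -1.40 without it (adjusted p = 9.76e-05). Pfkm moved the other way, from 40.95 ± 2.51 CPM at E17 to 53.4 ± 8.03 at P1, 64.5 ± 4.35 at P5 and 90.5 ± 4.28 at P14, and stayed near that level at P24 and P60. Its rise from P5 to P14 was 0.49 ± 0.14 (adjusted p = 0.00855), and 0.32 under library size alone (adjusted p = 0.0606). The smaller one from E17 to P1 (0.38 ± 0.14, adjusted p = 0.0407) was lost when any of 6 single libraries was left out, with adjusted p values from 0.0782 to 0.125. Pfkm was the most abundant of the 3 per kilobase in every stage, and Pfkl per kilobase stood at 0.724 of Pfkm at E17 and 0.178 at P1. Pfkp was at 173, 112, 80.9 and 54.2 CPM in the E13 libraries and 17.01 to 19.4 CPM at E17, a fall of 2.52 ± 0.20 (adjusted p = 2.78e-11). E13 replicates 1 and 4, the libraries with opposite GC slopes, were its highest and lowest values. Parts of the Pfkm and Pfkp loci overlap Senp1 and Pitrm1 on the opposite strand, as those of Pfkfb1, Pfkfb2 and Gapdh overlap Apex2, Yod1 and Iffo1, so their counts are uncertain where reads were not assigned by strand. Pfkfb2 and Pkm also overlap a gene on their own strand (Gm29427 and Gm49759), and their counts carry that uncertainty too.

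The PFKFB enzymes set the level of fructose 2,6-bisphosphate, the activator of phosphofructokinase. Pfkfb3, the form with the strongest kinase activity, dipped after birth. Its mean was 39.8 ± 2.55 CPM on E17, 19.96 ± 1.60 on P1, 12.8 ± 0.589 on P5, 27.3 ± 3.82 on P14, 24.4 ± 4.39 on P24 and 38.3 ± 5.33 on P60. It fell by 1.00 ± 0.13 from E17 to P1 (adjusted p = 5.86e-07) and by a further 0.64 ± 0.13 to P5 (adjusted p = 0.000516), then rose by 1.09 ± 0.13 to P14 (adjusted p = 1.86e-07) and by 0.65 ± 0.13 from P24 to P60 (adjusted p = 0.000522). Pfkfb4 rose from 11.02 ± 1.55 to 19.3 ± 1.55 CPM between P1 and P5 (0.81 ± 0.17, adjusted p = 0.000904), the step in which Pfkfb3 fell. The stage means of Pfkfb1 and Pfkfb2 ranged over 1.68 to 3.98 and 15.1 to 27.6 CPM, and neither passed in P1 against E17. Pfkfb2 passed in none of the other 6 comparisons. Pfkfb1 passed in E17 against E13 (-0.61 ± 0.27, adjusted p = 0.0498), in P60 against P24 (0.85 ± 0.27, adjusted p = 0.0313) and in P60 against P1 (0.66 ± 0.27, adjusted p = 0.0337), with overlapping libraries each time. These calls were lost without any of 5, 6 and 6 single libraries in turn, among them P1 replicate 1 in the last (adjusted p = 0.0564). Pfkfb1 has few reads, with a lowest count of 23 in a library.

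Aldolase cleaves the hexose bisphosphate. Aldoa, the muscle form, averaged 432 ± 28.3 CPM on E17, 291 ± 64.4 on P1, 384 ± 26.9 on P5, 582 ± 49.1 on P14, 572 ± 49.2 on P24 and 729 ± 67.4 on P60. The rise from P1 to P60 was 1.33 ± 0.21 (adjusted p = 4.45e-06). The fall from E17 to P1 (-0.57 ± 0.21, adjusted p = 0.0382) was lost without P1 replicate 1, at -0.43 with an adjusted p of 0.137, and likewise without any single E17 library or P1 replicate 2. Aldoc, the form of brain and of glia, had the widest range of the module. Its E13 libraries were at 25.5, 32.2, 30.0 and 63.0 CPM and its E17 libraries at 0.880, 0.951, 0.776 and 1.19 CPM. It then climbed through 2.04, 2.71, 2.30 and 3.51 CPM at P1 and 6.75, 8.88, 7.92 and 8.34 CPM at P5 to 24.2, 30.7, 36.1 and 28.6 CPM at P14. From E17 to P14 no stage overlapped the next, with log2 changes of 1.49 ± 0.28 (adjusted p = 0.000131), 1.59 ± 0.23 (adjusted p = 9.9e-06) and 1.91 ± 0.22 (adjusted p = 1.25e-07) in turn. It reached 38.2 ± 3.15 CPM at P24. Its lower mean of 25.2 ± 4.82 CPM at P60 passed narrowly (-0.60 ± 0.21, adjusted p = 0.0482) and was lost when any of 7 of the 8 libraries was left out. The lowest Aldoc count in a library was 16, so its E17 values rest on few reads.

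Of the 4 genes between aldolase and enolase, Tpi1, Pgk1 and Pgam1 passed as lower in P1 against E17. Tpi1, triose phosphate isomerase, went from 333 ± 30.96 CPM at E17 to 157 ± 17.8 at P1 (-1.08 ± 0.18, adjusted p = 3.06e-05). Gapdh, the dehydrogenase that yields NADH, went from 343 ± 33.9 to 235 ± 56.7 CPM, which did not pass (-0.55 ± 0.24, adjusted p = 0.0833). Its libraries did not overlap all the same, at 316 to 392 CPM at E17 and 153 to 276.5 CPM at P1. The fit also held the E13 libraries, in which Gapdh spread over 202 to 825 CPM. Pgk1, phosphoglycerate kinase, stood at 159, 154, 164 and 163 CPM in the E17 libraries and 86.1, 76.3, 81.5 and 75.8 CPM in those of P1. With tight replicates and no overlap it fell by 1.00 ± 0.11 (adjusted p = 9.37e-08). Pgam1, phosphoglycerate mutase, stood at 93.3, 86.9, 96.3 and 96.5 CPM in the E17 libraries and 35.3, 37.8, 40.8 and 40.02 CPM in those of P1, a change of -1.28 ± 0.16 (adjusted p = 6.43e-07). After birth these genes parted. Between P1 and P60 Gapdh rose by 0.81 ± 0.24 (adjusted p = 0.00415), and Tpi1 by 0.50 ± 0.18 (adjusted p = 0.0168), the latter lost without P1 replicate 1 (adjusted p = 0.0513). Over the same span Pgk1 fell by 0.39 ± 0.11 (adjusted p = 0.00412) and Pgam1 by 0.83 ± 0.16 (adjusted p = 8.95e-05), to 61.0 ± 4.38 and 21.7 ± 1.38 CPM, the lowest stage means of both.

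**Figure D3:**
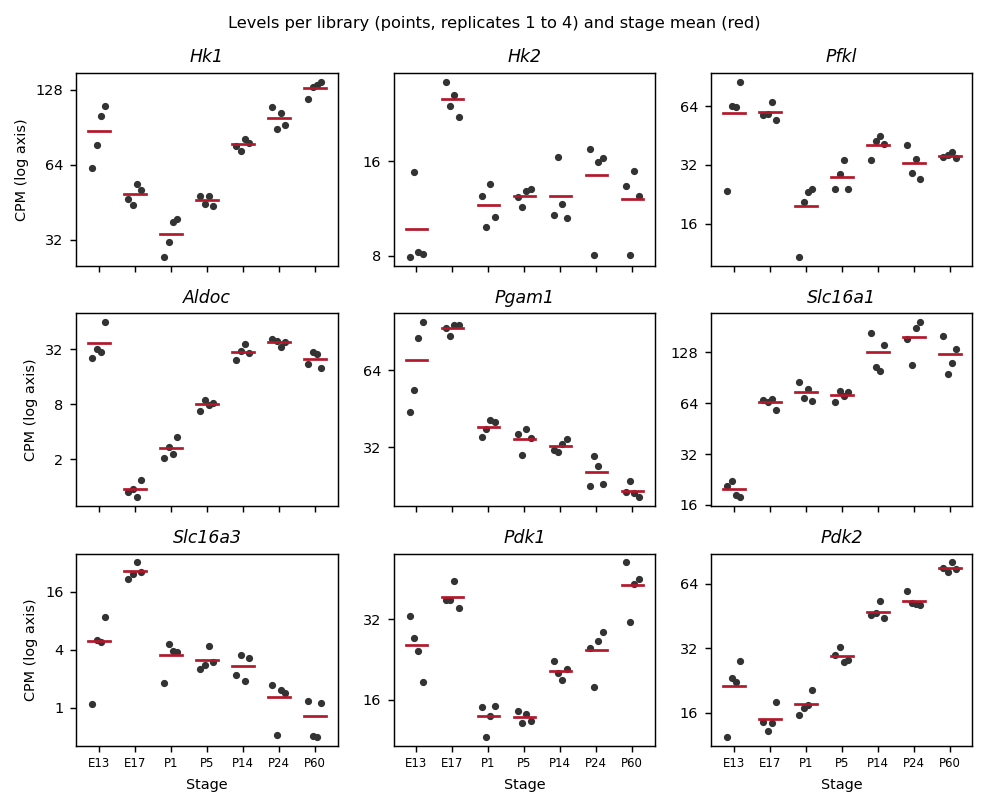
Each panel gives CPM on a log axis for 1 gene, with points for the libraries of a stage and a red line at the stage mean. The stage means of Hk2, Pgam1 and Slc16a3 are highest at E17, although E13 replicate 4 is the highest single library for Pgam1. Pfkl has a low library at E13 and at P1 (replicate 1 of each), and Hk1, Pdk2 and Aldoc climb from P1 to P14.

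Enolase makes phosphoenolpyruvate. Eno1, the widespread form, stood at 342, 342, 414 and 351 CPM in the E17 libraries and at 119.6, 221, 224 and 231 CPM in those of P1, where replicate 1 lay below the others. The log2 change was -0.86 ± 0.23 (adjusted p = 0.00571) and -0.69 without that library (adjusted p = 0.0284). Eno2, the neuronal form, averaged 45.9 ± 12.5 CPM on E13, 26.4 ± 1.22 on E17, 13.7 ± 1.57 on P1, 23.6 ± 1.52 on P5 and 40.6 ± 2.32 on P60. Its P60 libraries, at 37.6 to 43.2 CPM, lay above those of every stage from E17 to P24, and the rise was 0.79 ± 0.14 from P24 (adjusted p = 0.000127) and 1.57 ± 0.14 from P1 (adjusted p = 1.44e-10). The neuronal cell body markers summed to 28.6 to 39.9 CPM at P60 and to 13.96 to 21.2 CPM at P1. Eno3, the muscle form, stayed between 7.87 and 13.7 CPM in its stage means, and its highest library was E13 replicate 2 at 25.0 CPM, the library with the highest sum of skeletal muscle markers (332.5 CPM, the others of that stage at 18.1 to 48.7 CPM). Without that library the fall of Eno3 from E13 to E17 was -0.36 with an adjusted p of 0.189, against -0.80 with it (adjusted p = 0.0143). Pkm, pyruvate kinase of muscle and most other tissues, fell from 409.5 ± 28.6 CPM at E17 to 230 ± 50.2 at P1 (-0.83 ± 0.22, adjusted p = 0.00514). Its rise to 341 ± 18.2 CPM at P60 (0.57 ± 0.22, adjusted p = 0.0281) was lost without P1 replicate 1 (adjusted p = 0.0992), P60 replicate 2 (0.06) or P60 replicate 4 (0.0528). The counts are per gene, so the splice forms of Pkm were not told apart.

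The subunits of lactate dehydrogenase changed their order. Ldha encodes the subunit that favours the making of lactate and Ldhb the one that prevails in tissues that take lactate up. Ldha was at 452, 423.5, 496 and 457 CPM in the E17 libraries, at 245, 287, 298 and 287 CPM at P1 and at 157, 163, 152 and 147 CPM at P60. Ldhb was at 108.5, 105, 118 and 111.5 CPM at E17, at 262, 316, 304 and 332 CPM at P1 and at 512, 609, 592 and 570 CPM at P60. At each of these steps the groups did not overlap. Ldha fell by 0.71 ± 0.15 from E17 to P1 (adjusted p = 0.000717) and by 0.85 ± 0.15 from P1 to P60 (adjusted p = 2.81e-05), while Ldhb rose by 1.45 ± 0.16 (adjusted p = 5.01e-08) and by 0.91 ± 0.16 (adjusted p = 1.31e-05). Between E13 and E17 the movement had been the reverse, with Ldha up by 0.81 ± 0.15 (adjusted p = 5.21e-05) and Ldhb down by 0.82 ± 0.16 (adjusted p = 5.86e-05). Per kilobase of merged exons, Ldhb stood at 1.58 times Ldha on E13, 0.512 on E17, 2.29 on P1, 3.46 on P5, 4.37 on P14, 5.64 on P24 and 7.76 on P60. In log2 units the ratio within a library lay between -0.99 and -0.93 in the 4 E17 libraries and between 1.10 and 1.29 in the 4 P1 libraries, P1 replicate 1 included, at 1.17. It therefore changed order between those stages in every library, and from E17 on each later group of libraries lay above the one before.

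**Figure D4:**
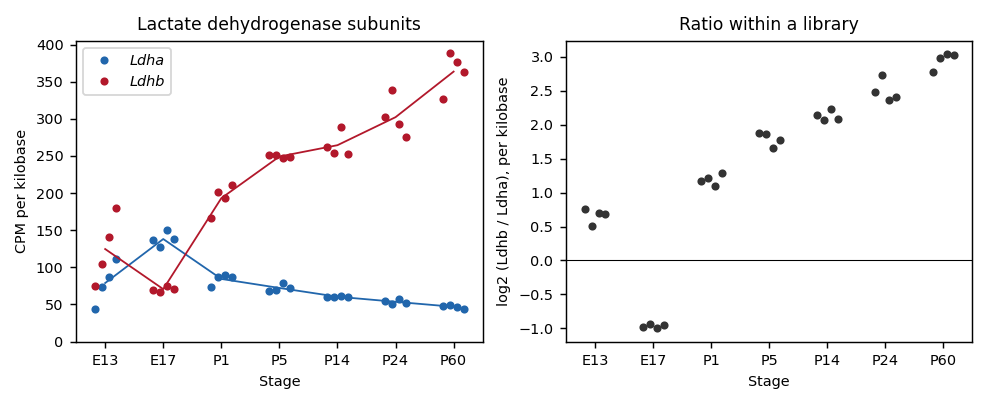
On the left, CPM per kilobase of merged exons for Ldha (blue) and Ldhb (red), with points for libraries and lines through the stage means. On the right, the log2 ratio of Ldhb to Ldha within each library, negative at E17 (-0.99 to -0.93) and positive at every other stage, reaching 2.78 to 3.04 at P60.

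The monocarboxylate transporters carry lactate and pyruvate across the plasma membrane. Slc16a1 encodes MCT1, a transporter of Schwann cells, endothelium and other cells in nerve. It averaged 19.8 ± 1.98 CPM on E13, 64.7 ± 4.41 on E17, 74.4 ± 9.11 on P1 and 71.4 ± 4.61 on P5, and the P14 libraries held 166, 105, 99.3 and 141 CPM. It rose by 1.71 ± 0.17 from E13 to E17 (adjusted p = 2.95e-09) and by 0.84 ± 0.17 from P5 to P14 (adjusted p = 0.000345), and the interval between E17 and P5 held no step that passed. From P14 on its replicates spread widely, at 108 to 193 CPM at P24 and at 95.2 to 159 CPM at P60, with replicate 2 the lowest at each. Those libraries were also the lowest of their stage for the perineurial markers (423 CPM at P24 and 763 CPM at P60) and the white adipocyte markers. They were the highest of their stage for the Schwann cell markers. The part of these cells was not tested. Slc16a3 encodes MCT4, a lactate exporter of strongly glycolytic cells. It was at 21.7, 24.4, 32.2 and 25.3 CPM in the E17 libraries and at 1.82, 4.62, 3.87 and 3.79 CPM at P1, and no library of any stage but E17 exceeded 8.79 CPM. It rose by 2.41 ± 0.39 into E17 (adjusted p = 6.5e-06), fell by 2.88 ± 0.40, or 7.36-fold, into P1 (adjusted p = 2.49e-06) and fell by a further 2.09 ± 0.47 to 0.826 ± 0.374 CPM at P60 (adjusted p = 0.000378). Its lowest count was 7, at P60. Slc16a7, for MCT2, averaged 24.8 ± 2.27 CPM on E17, 10.2 ± 1.93 on P1, 18.9 ± 3.28 on P14, 15.9 ± 2.66 on P24 and 6.79 ± 0.188 on P60. It fell by 1.28 ± 0.25 into P1 (adjusted p = 0.000223) and by 1.23 ± 0.26 from P24 to P60 (adjusted p = 0.00101), the only change of at least 2-fold among the 37 genes in that step. Its smaller fall from P1 to P60 (adjusted p = 0.045) was lost without P1 replicate 1 (0.16), without P1 replicate 2 (0.0785) and without any single P60 library (0.0665 to 0.083).

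MCT proteins reach the membrane with a chaperone of the immunoglobulin family. Bsg, basigin, the partner of MCT1 and MCT4, was abundant throughout and peaked at 516 ± 30.1 CPM at P14. It rose by 0.53 ± 0.16 from P5 to P14 (adjusted p = 0.0132), which was lost under library size alone (0.35, adjusted p = 0.0638). From E17 to P1, where Slc16a3 fell, the change of Bsg of -0.26 ± 0.16 did not pass. Emb, embigin, the partner of MCT2, fell from 11.4 ± 4.32 CPM at E13 to 3.15 ± 0.631 at E17 (-1.87 ± 0.28, adjusted p = 2e-06) and to 1.54 ± 0.597 at P1 (-1.03 ± 0.29, adjusted p = 0.00802). Its rise to 2.52 ± 0.888 CPM at P60 (adjusted p = 0.0414) was lost without any of 6 single libraries, P1 replicate 1 among them (adjusted p = 0.123), with adjusted p values from 0.0533 to 0.212. The lowest Emb count in a library was 14, so its later values rest on few reads.

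Pyruvate enters mitochondria through a carrier made of MPC1 and MPC2. Mpc1 averaged 17.9 ± 1.15 CPM on E13, 21.3 ± 2.39 on E17, 25.9 ± 1.44 on P1, 30.98 ± 0.99 on P5, 43.3 ± 1.49 on P14, 53.2 ± 3.32 on P24 and 51.9 ± 4.39 on P60. The rise from P1 to P60 was 1.00 ± 0.09, or 2.005-fold (adjusted p = 2.12e-10). The rise from P5 to P14 was 0.48 ± 0.09 (adjusted p = 0.000134). That from P14 to P24 (0.30 ± 0.09, adjusted p = 0.0449) was lost whichever of the 8 libraries was left out, with adjusted p values from 0.052 to 0.162. Mpc2 changed less, with stage means between 25.8 and 37.95 CPM.

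Among the subunits of the pyruvate dehydrogenase complex, Pdhb and Dlat rose from E17 to P1. Pdhb, the beta subunit of the first enzyme, stood at 67.6, 61.4, 66.1 and 61.9 CPM in the E17 libraries and 95.5, 86.1, 84.6 and 89.4 CPM in those of P1 (0.47 ± 0.09, adjusted p = 0.000168). Dlat, the acetyltransferase core, averaged 30.9 ± 0.949 and 43.9 ± 3.01 CPM (0.51 ± 0.11, adjusted p = 0.000614). In neither did the groups overlap, and by P60 both had fallen again, Pdhb by 0.58 ± 0.09 (adjusted p = 2.56e-06) and Dlat by 0.33 ± 0.11 (adjusted p = 0.00941). Pdha1, the alpha subunit and the most abundant of the 3 per kilobase, averaged 122 ± 3.72 CPM on E17 and 151 ± 12.8 on P1, just short of passing (0.31 ± 0.12, adjusted p = 0.0518), and at 161.5 ± 5.88 at P60.

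The genes of the kinases that inhibit this complex moved differently. Pdk1 stood at 37.7, 37.55, 44.4 and 35.3 CPM in the E17 libraries and at 15.02, 11.6, 13.96 and 15.2 CPM at P1, a fall of 1.47 ± 0.16 (adjusted p = 5.17e-08). It stayed at 13.8 ± 0.687 CPM at P5, was 20.6 ± 1.44 at P14 and 24.5 ± 4.62 at P24, and returned to 52.1, 31.2, 43.2 and 45.1 CPM at P60. The return from P1 was 1.62 ± 0.16 (adjusted p = 1.77e-09). Its lowest P24 library was replicate 2 at 17.9 CPM, and the lowest P60 library was replicate 2 at 31.2 CPM. Each of these libraries was also the lowest of its stage for the white adipocyte markers (8.79 and 125.2 CPM) and for the perineurial markers (423 CPM, the others of P24 at 592 to 616 CPM, and 763 CPM, the others of P60 at 1024 to 1123 CPM). Pdk2 averaged 15.02 ± 2.10 CPM on E17, 17.6 ± 2.02 on P1, 29.6 ± 2.13 on P5, 47.6 ± 3.91 on P14, 53.6 ± 4.05 on P24 and 76.1 ± 3.48 on P60. From P1 to P14 no stage overlapped the next, and the rise from P1 to P60 was 2.11 ± 0.16, or 4.33-fold (adjusted p = 5.8e-12). Pdk3 followed a course of its own. It was highest at P5, at 38.1 ± 1.89 CPM, and lowest at P60, at 18.5 ± 2.11 CPM, with a change of -0.93 ± 0.12 from P1 to P60 (adjusted p = 9.2e-08). Its rise from E17 to P1 (0.39 ± 0.11, adjusted p = 0.0107) was lost without P1 replicate 1 (0.26, adjusted p = 0.0772). Per kilobase, Pdk3 was the most abundant of the 3 from E13 to P5, and Pdk2 was the most abundant from P14 on.

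**Figure D5:**
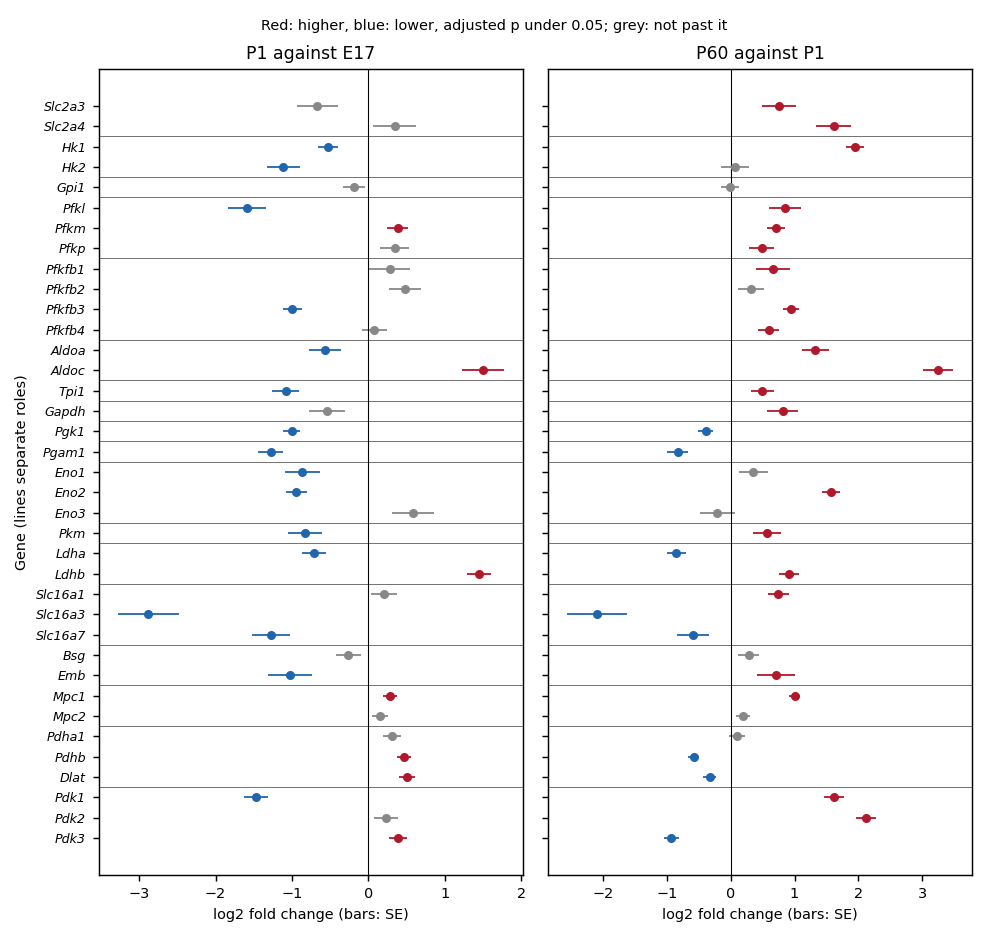
Points give the log2 fold change of each gene with its SE as a bar, for P1 against E17 on the left and P60 against P1 on the right; red and blue mark genes that passed as higher and lower. On the left, Slc16a3 lies lowest at -2.88 and Aldoc and Ldhb highest at 1.49 and 1.45. On the right, Aldoc lies highest at 3.25 and Slc16a3 lowest at -2.09.

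Ratios of related members within a library do not depend on how libraries are scaled. Of 15 such ratios per kilobase, 12 differed between P60 and P1 with no overlap of the 4 libraries of each stage (exact permutation test, two-sided, p = 0.0286, adjusted p = 0.0357 over the 15), and 0.0286 is the smallest p that 4 against 4 libraries can give. Ratios that rose were Aldoc to Aldoa (by 1.90 in log2 units), Ldhb to Ldha (1.76), Eno2 to Eno1 (1.18), Slc2a4 to Slc2a3 (0.86) and Pdk2 to Pdk1 (0.52). The last was separated by a narrow gap, with its highest P1 library at 1.835 and its lowest P60 library at 1.836. Its means at P5, P14 and P24 (2.398, 2.507 and 2.448) lay above that at P60 (2.148). Ratios that fell were Slc16a3 to Slc16a1 (by -2.80), Pdk3 to Pdk1 (-2.52), Hk2 to Hk1 (-1.92), Slc16a7 to Slc16a1 (-1.30), Mpc2 to Mpc1 (-0.80), Pdhb to Pdha1 (-0.68) and Eno3 to Eno1 (-0.60). Those of Pfkl to Pfkm, Pfkp to Pfkm and Emb to Bsg overlapped between the stages. With the GC trend removed, the ratio of Slc2a4 to Slc2a3 no longer passed (exact permutation test, adjusted p = 0.0659) and that of Pfkp to Pfkm did (-0.24, adjusted p = 0.0357, exact permutation test).

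Hypoxia-inducible factor (HIF) is a transcription factor known as an activator of glycolytic genes. A list of 15 genes of the HIF axis that are not members, made up of its subunits, its regulators and some of its targets, was examined beside the 37. In P1 against E17, 5 of the 15 were lower and 1 was higher (14.4% and 15.1% of all genes). Ddit4 went from 80.1 to 14.9 CPM (-2.43 ± 0.23, adjusted p = 5.05e-09), Ankrd37 from 6.40 to 1.317 CPM (-2.28 ± 0.29, adjusted p = 8.83e-07) and Vegfa, the endothelial growth factor, from 44.5 to 12.8 CPM (-1.80 ± 0.18, adjusted p = 1.03e-08). The prolyl hydroxylases that mark HIF for destruction fell in the cases of Egln3 (-1.67 ± 0.31, adjusted p = 0.000158) and Egln1 (-0.40 ± 0.09, adjusted p = 0.00173). Arnt2 was higher (0.79 ± 0.09, adjusted p = 4.61e-08), and Hif1a itself did not pass, at 113 CPM at E17 and 135.5 CPM at P1 (adjusted p = 0.417). The same 6 genes passed without P1 replicate 1. Of the other targets in the list, Bnip3 did not pass, at 16.1 CPM at E17 and 14.5 CPM at P1 (-0.16 ± 0.14, adjusted p = 0.418), nor did Car9 and Adm, which were below 2 CPM at both stages. In P60 against P1, 5 of the 15 were higher and 2 lower, near the 30.9% of all genes that were higher and below the 30.2% that were lower, with Epas1, which encodes HIF-2α, at 21.4 and 165 CPM (2.95 ± 0.15, adjusted p = 3.21e-15), Bnip3 at 14.5 and 68.0 CPM (2.23 ± 0.14, adjusted p = 1.51e-13) and Ddit4 back at 65.6 CPM (2.14 ± 0.23, adjusted p = 8.44e-09). Vegfa, at 10.7 CPM, did not follow (-0.26 ± 0.18, adjusted p = 0.22). Without P1 replicate 1 the list had 5 higher and 1 lower in P60 against P1, as Car9 was lost (adjusted p = 0.057). Over the same steps the endothelial markers summed to 238 to 287.5 CPM at E17, 141 to 161 CPM at P1 and 337 to 362 CPM at P60.

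HIF binds DNA at the letters ACGTG or, with another first base, GCGTG, and the start regions of members were searched for both. The windows were those of RefSeq on GRCm38.p6, 300 bases long from 250 bases before to 50 bases after the most upstream start listed for a gene, and 33 of the 37 members had one. Shown are the 4 members with a window that fell most from E17 to P1 (Slc16a3, Pfkl, Pdk1 and Pgam1) and the pair whose order turned (Ldha and Ldhb), each 5′ to 3′ on the gene's own strand. Capitals mark either motif on either strand. CACGT is the reverse complement of the first motif, while CACGC is that of the second, and a run that reads as the first motif on both strands counts as 2 matches. The windows lie at chr11:120948817-120949116 (plus strand) for Slc16a3, chr10:78009758-78010057 (minus) for Pfkl, chr2:71872974-71873273 (plus) for Pdk1, chr19:41911621-41911920 (plus) for Pgam1, chr7:46845554-46845853 (plus) for Ldha and chr6:142507908-142508207 (minus) for Ldhb.
Slc16a3: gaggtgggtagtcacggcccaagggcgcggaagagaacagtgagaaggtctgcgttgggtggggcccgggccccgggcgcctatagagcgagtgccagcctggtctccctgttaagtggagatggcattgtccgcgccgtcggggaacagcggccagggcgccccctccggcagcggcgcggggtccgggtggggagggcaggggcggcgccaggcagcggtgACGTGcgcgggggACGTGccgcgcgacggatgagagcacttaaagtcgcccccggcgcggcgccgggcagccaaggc
Pfkl: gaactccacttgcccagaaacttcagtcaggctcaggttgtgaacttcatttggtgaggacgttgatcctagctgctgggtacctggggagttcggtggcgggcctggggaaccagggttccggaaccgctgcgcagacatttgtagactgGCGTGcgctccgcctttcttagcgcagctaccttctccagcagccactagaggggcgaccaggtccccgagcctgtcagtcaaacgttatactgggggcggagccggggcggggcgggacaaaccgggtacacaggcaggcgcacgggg
Pdk1: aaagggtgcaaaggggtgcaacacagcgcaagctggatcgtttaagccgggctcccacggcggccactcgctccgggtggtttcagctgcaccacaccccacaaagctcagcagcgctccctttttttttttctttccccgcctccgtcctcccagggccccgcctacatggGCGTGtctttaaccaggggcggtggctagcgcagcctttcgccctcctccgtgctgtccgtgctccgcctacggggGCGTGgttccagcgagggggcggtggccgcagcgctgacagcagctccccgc
Pgam1: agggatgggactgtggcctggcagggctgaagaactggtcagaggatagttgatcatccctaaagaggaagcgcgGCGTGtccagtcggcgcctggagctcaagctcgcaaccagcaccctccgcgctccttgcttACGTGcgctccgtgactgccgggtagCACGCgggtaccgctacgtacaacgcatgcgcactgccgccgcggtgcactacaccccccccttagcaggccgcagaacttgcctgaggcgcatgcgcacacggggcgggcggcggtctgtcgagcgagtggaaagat
Ldha: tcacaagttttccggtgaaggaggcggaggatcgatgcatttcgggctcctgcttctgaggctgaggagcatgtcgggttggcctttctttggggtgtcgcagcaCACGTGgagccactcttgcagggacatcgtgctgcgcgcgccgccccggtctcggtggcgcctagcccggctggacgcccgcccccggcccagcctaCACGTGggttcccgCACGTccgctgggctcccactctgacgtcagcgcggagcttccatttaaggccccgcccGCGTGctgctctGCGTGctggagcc
Ldhb: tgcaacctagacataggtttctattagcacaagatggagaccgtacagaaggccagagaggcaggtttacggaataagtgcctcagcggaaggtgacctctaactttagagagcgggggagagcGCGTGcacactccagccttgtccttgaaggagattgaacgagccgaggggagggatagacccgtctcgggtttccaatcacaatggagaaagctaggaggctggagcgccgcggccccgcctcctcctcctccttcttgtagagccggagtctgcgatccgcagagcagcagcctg

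Slc16a3 holds 2 matches of ACGTG, Pdk1 holds 2 of GCGTG, and Ldha holds 5 of ACGTG and 2 of GCGTG, the most of any member. Ldhb holds 1 of GCGTG and none of ACGTG. Among the 33 members with a window, 13 (39.4%) hold ACGTG and 18 (54.5%) hold GCGTG, against 19.6% and 32.5% of the windows of all 27025 genes in the table. Either was found in 24 members (72.7%) and in 43.8% of all genes. Either was found in 9 of the 15 members with a window that fell from E17 to P1, in 6 of the 7 that rose and in 9 of the 11 that did not pass. Hk1, Aldoa, Tpi1, Eno2, Pkm and Emb fell and hold neither in this window. A match is a run of letters and not a measured site.

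Lists of neighbouring pathways were counted in the same way. In P1 against E17, where 15.1% of all genes were higher and 14.4% lower, 3 of 17 citrate cycle genes were higher and none was lower, with Idh3a at 72.04 and 94.3 CPM (0.39 ± 0.09, adjusted p = 0.00185), and 2 of 7 pentose phosphate genes were higher, Tkt and Taldo1, which link that pathway to glycolysis. Of 16 glycogen genes 6 were lower and 1 was higher. Gys1, glycogen synthase, changed by -1.07 ± 0.17 (adjusted p = 2.76e-05) and Ppp1r3c, which targets a phosphatase to glycogen, went from 17.7 to 1.88 CPM (-3.23 ± 0.25, adjusted p = 9.3e-11). Among 7 genes of the NADH shuttles, which carry the electrons of cytosolic NADH into mitochondria, Gpd2 rose from 24.8 to 74.1 CPM (1.58 ± 0.10, adjusted p = 8.6e-13), and 3 were higher and 1 lower in all. In P60 against P1, where 30.9% of all genes were higher and 30.2% lower, 8 of the 17 citrate cycle genes were lower and 3 higher, as Mpc1 rose and Pdhb and Dlat fell. Cs, citrate synthase, was at 235 and 158 CPM (-0.58 ± 0.09, adjusted p = 4.95e-06). In the glycogen list 7 were higher and 4 lower, with the phosphorylase genes Pygl (1.85 ± 0.16, adjusted p = 1.68e-10), Pygb (1.39 ± 0.13, adjusted p = 6.82e-10) and Pygm (1.20 ± 0.28, adjusted p = 0.000639) all higher and Gys1 lower (-0.76 ± 0.18, adjusted p = 0.000603). Among the 15 tested of 19 other genes of glycolysis and pyruvate, 6 were higher and 4 lower at P60, with Pcx, which carboxylates pyruvate to oxaloacetate, at 17.1 and 121 CPM (2.83 ± 0.28, adjusted p = 1.32e-09) and Gpd1, which makes glycerol 3-phosphate, at 32.1 and 161 CPM (2.33 ± 0.22, adjusted p = 6.85e-10). Without P1 replicate 1 the genes named here kept their calls, while the counts of several lists moved. In P1 against E17 the citrate cycle list then had 4 higher and 1 lower and the pentose phosphate list 2 higher and 1 lower. The glycogen list had 1 higher and 8 lower, where 14.5% of all genes were higher and 13.2% lower. In P60 against P1 the glycogen list had 7 higher and 2 lower, and the list of other genes 4 higher and 4 lower. Pcx and Gpd1 are prominent in fat. In P24 replicate 2, where the white adipocyte markers summed to 8.79 CPM, Pcx was at 72.7 CPM (the others of P24 at 82.6 to 113.8 CPM) and Gpd1 at 164 CPM (the others at 155 to 197.5 CPM).

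By GENCODE M21 on GRCm38, Slc16a3 (ENSMUSG00000025161) lies at chr11:120948480-120960868, Aldoc (ENSMUSG00000017390) at chr11:78322968-78327781, Pdk2 (ENSMUSG00000038967) at chr11:95026258-95041354, Ldha (ENSMUSG00000063229) at chr7:46841475-46855627 and Ldhb (ENSMUSG00000030246) at chr6:142490249-142507957. The 10 members Gpi1, Tpi1, Gapdh, Pgk1, Pgam1, Eno1, Pkm, Ldha, Ldhb and Mpc1 have annotated transcripts elsewhere that are at least 95% identical over at least 50% of their own length, with 4 such copies for Pgk1 and 3 each for Gapdh and Eno1. How reads shared with such copies were assigned is not stated, so the levels of these genes carry that uncertainty. Aldoa has a further identifier with 553 counts in all, 0.201% of those used, which was left out.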

How the data were processed

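Per the labels and the study's methods, the authors trimmed the reads, aligned them with STAR 2.6.1c, counted them per Ensembl gene with featureCounts and deposited the raw counts of 28 libraries, with no normalization. The submitters' processing notes name the mouse build GRCm38.p5, while the study's methods name a human build. The gene identifiers are those of mouse, so GRCm38 was taken. Whether reads were counted by strand, and how reads with several matches were treated, is not given in the sources used here. By the study's account 2 libraries of each stage came from male and 2 from female mice. The labels do not say which, so the fit has no term for sex.

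Counts were analysed in R 4.3.3 with edgeR 4.0.16: TMM scaling, filterByExpr by stage, and the quasi-likelihood test with robust estimation in 1 fit of all 28 libraries with stage as its term. Benjamini-Hochberg adjustment ran over the 17700 genes tested. All 37 members are accounted for. Values per library or stage means with SD are given for members whose stage means span at least 2 log2 units or that are the most abundant per kilobase of their step, and for further members chosen after their values were seen, as were the pathway genes named. The members and lists were chosen with earlier results of these data known. Ratios used counts per kilobase of merged exons, a prior count of 0.5 and a two-sided exact permutation test of 4 against 4 libraries. Replicates are separate pools or mice, so p values measure the spread between them. The fit was tested on simulated counts. Alternatives were other scalings, filters, DESeq2 1.42.0, limma-voom (limma 3.58.1), a fit without E13, the compared stages alone, removal of the GC trend, a replicate block and leaving out each library. Coordinates are from GENCODE M21 and promoter windows from RefSeq, both on GRCm38. Total counts of 13899895 to 37662780 per library set the precision. The lowest counts of a member in any library were 7 for Slc16a3, 14 for Emb, 16 for Aldoc and 23 for Pfkfb1. 1 gene of the Schwann cell marker list is not reported here, and that list's values leave it out.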

Additional observations from a re-analysis of the deposited data

Results flagged for a closer look

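In 13 of the 259 groups of 4 libraries examined (5.02%), 1 library lay so far from the others that its gap to the nearest, as a share of the range of the group, exceeded Dixon's critical value for 4 samples. Chance alone flags about 1 in 20 such groups. Hk2 stood at 14.74 CPM in E13 replicate 2, with the others at a mean of 8.10 CPM, and at 8.055 CPM in P24 replicate 2, with the others at 16.55 CPM. E13 replicate 2 also had the highest sum of skeletal muscle markers of its stage and P24 replicate 2 the lowest sum of white adipocyte markers, and their part was not tested. In P1 replicate 1, Eno1 was at 119.6 CPM against a mean of 225 CPM and Pfkm at 41.48 CPM against 57.3 CPM. Both were low in the library with the steepest GC slope of that stage. In E17 replicate 3, Eno1 was high at 413.7 CPM and Pkm at 451.9 CPM. Other low values were Pfkfb4 at 17.68 CPM in P24 replicate 2, Bsg at 447.8 CPM in P24 replicate 4, Mpc1 at 41.05 CPM in P14 replicate 1 and Mpc2 at 28.85 CPM in P60 replicate 3. Other high values were Emb at 1.3 CPM in P14 replicate 2, Mpc2 at 38.36 CPM in P14 replicate 4 and Pdk2 at 59.6 CPM in P24 replicate 1.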

How the results depend on the processing

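No gene that passed turned its direction under any alternative tried. With a 2-fold minimum added, the counts of the 37 genes that changed were 8 in E17 against E13, 11 in P1 against E17, 1 in P5 against P1, 2 in P14 against P5, 0 in P24 against P14, 1 in P60 against P24 and 9 in P60 against P1. In what follows the share of all genes called by the same fit is in parentheses. Fitted on the compared stages alone, the counts were 17 in E17 against E13 (46.9%), 12 in P5 against P1 (31.3%), 23 in P14 against P5 (53.6%) and 4 in P24 against P14 (13.4%). Without E13 in the fit they were 16 in P5 against P1 (35.2%), 21 in P14 against P5 (46.6%), 4 in P24 against P14 (14.5%) and 18 in P60 against P24 (31.2%). With limma-voom they were 19 (38.1%), 24 (51.2%), 7 (19.3%) and 20 (32.6%) in the same 4 steps. With the GC trend removed they were 14 in P5 against P1 (29.8%) and 4 in P24 against P14 (10.8%), and with no filter on low counts 0 in P24 against P14 (3.66%). The cause of these differences was not tested. Leaving out 1 library gave 0 in each case in P24 against P14 and 6 (without P24 replicate 2) to 11 in P60 against P24, with 7 without P24 replicate 4 or P60 replicate 3. Calls past the threshold in every alternative were 16 of 30, 19 of 23, 5 of 7, 6 of 13, 0 of 1, 4 of 11 and 22 of 29 in the 7 comparisons, in the order first given. With the GC trend removed, the ratio of Pfkp to Pfkm (-0.235) passed and that of Slc2a4 to Slc2a3 (0.861) did not.

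The labels give no pairing of libraries by replicate number, and same-numbered deviations correlated weakly, between -0.059 and 0.292. These correlations cannot exclude a batch or sex shared by number. With a replicate block the counts were 31 (62.4% of all genes), 25 (30.2%), 7 (18%), 13 (30.1%), 0 (5.47%), 11 (16.2%) and 28 (61.5%) in the 7 comparisons in the order above, and 36 across all stages (89.2%). In each comparison 1 to 3 of the 4 libraries correlated best with their own number, with 3 in P1 against E17 and in P60 against P1. The ratios, with 4 pairs or 4 against 3 libraries, could not pass in that form (smallest p 0.125 and 0.057, exact permutation test). Depth limits the genes with few counts, such as Slc16a3 at P60 and Aldoc at E17.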
